A study of Mus musculus with 24 samples.

Results

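Accessible chromatin was compared between the Daxx-WT long-term haematopoietic stem cell (LT-HSC) and the Daxx-WT common myeloid progenitor (CMP), the step at which a stem cell has entered the myeloid branch. Both populations were taken by their labels, and they account for 4 of the 24 ATAC-seq libraries of the series (2 of 11 groups, 2 libraries each). In ATAC-seq a transposase inserts adapters into DNA that is not wrapped in nucleosomes, and a peak marks a region with many insertions. Each group had 1 peak list, as positions alone. The lists therefore carry no peak height, no depth and no spread between libraries, and no comparison below has a test over samples.

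The cells of both groups came from bone marrow of C57BL/6 mice and were labelled Daxx +/+ Cre +/-. In the study's design Cre is a tamoxifen-activated CreERT2 expressed from the Rosa locus in every tissue, and tamoxifen was also given to these controls. LT-HSCs were sorted as CD150+ CD48- cells of the c-Kit+ Sca-1+ Lin- gate, and CMPs as c-Kit+ Lin- cells that carried CD34 but neither Sca-1 nor CD16/32. The labels of these libraries carry no time after induction and no age; by the methods both populations were taken 3 weeks after tamoxifen, and the age at treatment is given there only as a usual range for all mice. LT-HSCs alone were enriched on c-Kit beads before the sort, and CMP libraries were additionally sequenced as single reads whereas LT-HSC libraries were sequenced as read pairs. Handling, the way of sequencing and the cell type cannot be told apart in any difference between the lists.

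LT-HSCs sit at the top of the haematopoietic hierarchy, divide rarely and are held there by regulators such as Mecom, Meis1 and Hlf. CMPs have lost long-term self-renewal and give rise to granulocytes, monocytes, erythrocytes and megakaryocytes. Much of the lineage choice is written in distal elements, which are bound by factors such as GATA proteins (erythroid, megakaryocyte and mast cell genes), PU.1 and C/EBP proteins (granulocyte and monocyte genes) and RUNX1.

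A peak was called shared when it overlapped a peak of the other list by at least 1 bp, LT-HSC-only or CMP-only otherwise, and distal when it lay over 1000 bp from every annotated transcription start site. Each distal peak was assigned to the protein-coding gene with the nearest start site, which need not be the gene it acts on. Distances below are from the nearest start site of that gene, negative when upstream. A gene was counted with a start-site peak when a peak lay within 1000 bp of any of its annotated start sites, which need not be its main promoter.

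A few of the elements that differed between the lists are shown first, because the motifs discussed below can be read in them. The first set comes from the most changed gene of each of the stem cell, granulocyte-monocyte, erythroid and megakaryocyte lists. From each gene the widest changed distal peak in the majority direction of its list was taken, so the list set the class of the peak. Shown are the central base and the 100 bp on either side of it (mm10, plus strand). Capitals mark the motifs searched. The Mecom element, in an intron at -8.5 kb, and the Bcl11a element, in an intron at 22.2 kb, were LT-HSC-only, as was the Fli1 element between genes at -6.6 kb. The Zeb2 element, between genes at -575.7 kb, was CMP-only.
Mecom, chr3:30246679-30246879: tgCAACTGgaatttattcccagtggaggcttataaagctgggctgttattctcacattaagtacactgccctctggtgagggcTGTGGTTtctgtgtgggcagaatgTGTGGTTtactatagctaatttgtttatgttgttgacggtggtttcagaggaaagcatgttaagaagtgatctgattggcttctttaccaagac
Bcl11a, chr11:24102781-24102981: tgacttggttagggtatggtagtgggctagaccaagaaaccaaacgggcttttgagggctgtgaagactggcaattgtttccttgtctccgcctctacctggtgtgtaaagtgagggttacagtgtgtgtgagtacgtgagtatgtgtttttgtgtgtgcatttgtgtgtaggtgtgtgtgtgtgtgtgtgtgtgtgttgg
Fli1, chr9:32549354-32549554: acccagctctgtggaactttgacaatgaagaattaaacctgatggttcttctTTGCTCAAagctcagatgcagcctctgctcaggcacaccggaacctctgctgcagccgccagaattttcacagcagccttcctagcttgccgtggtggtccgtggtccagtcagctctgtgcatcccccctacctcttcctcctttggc
Zeb2, chr2:45693030-45693230: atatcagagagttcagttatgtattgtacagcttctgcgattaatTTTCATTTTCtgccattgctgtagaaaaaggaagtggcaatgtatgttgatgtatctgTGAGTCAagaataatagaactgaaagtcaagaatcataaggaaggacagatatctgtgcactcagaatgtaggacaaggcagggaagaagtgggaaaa

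The Mecom window held 2 RUNX motifs (TGTGGTT) and 1 MYB motif (CAACTG). The Zeb2 window held an AP-1 motif (TGANTCA) and an IRF motif, the Fli1 window held a C/EBP motif (TTGCNNAA), and none of the 12 motifs was found in the Bcl11a window.

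The second set was chosen after the values were seen. It holds the changed distal peaks of the stem cell, granulocyte-monocyte, late neutrophil, erythroid and megakaryocyte lists that had both a PU.1 motif (GAGGAAGT) and a C/EBP motif, or a HOX-MEIS motif (TGATTTAT), in a window of the same length. Of these 6 peaks, Cxcr2 and Retnlg carried PU.1 and C/EBP motifs in CMP-only peaks and Mllt3 carried both in an LT-HSC-only peak. HOX-MEIS motifs stood in LT-HSC-only peaks of Meis1 and Bcl11a and in 1 CMP-only peak of Meis1.
Cxcr2, CMP-only, chr1:74155544-74155744: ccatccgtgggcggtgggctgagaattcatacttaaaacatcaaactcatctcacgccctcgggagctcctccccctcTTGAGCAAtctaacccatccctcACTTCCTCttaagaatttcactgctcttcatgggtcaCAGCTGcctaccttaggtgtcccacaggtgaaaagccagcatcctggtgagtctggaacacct
Retnlg, CMP-only, chr16:48865064-48865264: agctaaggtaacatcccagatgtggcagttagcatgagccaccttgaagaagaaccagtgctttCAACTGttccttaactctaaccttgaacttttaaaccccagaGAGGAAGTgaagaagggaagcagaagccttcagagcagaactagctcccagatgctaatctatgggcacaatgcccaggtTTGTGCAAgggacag
Mllt3, LT-HSC-only, chr4:87823558-87823758: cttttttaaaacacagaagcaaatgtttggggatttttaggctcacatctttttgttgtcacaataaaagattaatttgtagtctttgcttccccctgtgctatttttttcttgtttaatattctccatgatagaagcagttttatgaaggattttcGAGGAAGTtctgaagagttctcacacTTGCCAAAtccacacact
Meis1, LT-HSC-only, chr11:19420220-19420420: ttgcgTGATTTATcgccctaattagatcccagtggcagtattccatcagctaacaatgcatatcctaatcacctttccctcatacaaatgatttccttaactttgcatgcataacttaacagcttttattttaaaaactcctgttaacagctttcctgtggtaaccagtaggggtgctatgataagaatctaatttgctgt
Bcl11a, LT-HSC-only, chr11:24282240-24282440: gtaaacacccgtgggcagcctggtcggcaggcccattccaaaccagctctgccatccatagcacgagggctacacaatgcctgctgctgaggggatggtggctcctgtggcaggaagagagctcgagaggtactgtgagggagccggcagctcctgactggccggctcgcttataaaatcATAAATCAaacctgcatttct
Meis1, CMP-only, chr11:18885834-18886034: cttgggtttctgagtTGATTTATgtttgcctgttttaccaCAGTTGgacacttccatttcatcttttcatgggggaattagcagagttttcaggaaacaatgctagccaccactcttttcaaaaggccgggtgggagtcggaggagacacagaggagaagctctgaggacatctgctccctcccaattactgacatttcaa

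The lists were of similar length, with 65455 peaks in LT-HSCs and 66070 in CMPs, and most of each list was shared. Of the LT-HSC peaks, 18419 had no CMP peak (28.1%, Wilson 95% interval 27.8 to 28.5). Of the CMP peaks, 17845 had no LT-HSC peak (27%, interval 26.7 to 27.3). These intervals and those below cover counting error over peaks and not the spread between mice. The changed peaks were mostly distant from start sites: 34.3% of the distal peaks of each list were absent from the other, against 15% of LT-HSC peaks and 10.2% of CMP peaks at start sites.

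Distal elements were exchanged in nearly equal number, with 15289 LT-HSC-only and 15803 CMP-only peaks, so that 50.8% of the changed distal peaks were CMP-only (interval 50.3 to 51.4). Start sites differed in balance. There, 3130 peaks were LT-HSC-only and 2042 were CMP-only, and 39.5% of the changed peaks were CMP-only (interval 38.2 to 40.8). This start-site imbalance was smaller, at 45.2%, when every peak was set to 500 bp around its centre.

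Peaks of the LT-HSC list were wider, with a median of 889 bp against 651 bp in CMPs, and at 28538 pairs of shared distal peaks the median log2 ratio of CMP to LT-HSC width was -0.33. The part of width in the results was not tested, apart from the setting of equal widths. Changed peaks were narrower than shared ones in each list. At distal positions the median was 696 bp for LT-HSC-only and 839 bp for shared LT-HSC peaks, and 502 bp for CMP-only and 620 bp for shared CMP peaks. Few changed peaks were near misses: 90.9% of the LT-HSC-only and 89.6% of the CMP-only distal peaks lay over 1 kb from any peak of the other list, at median gaps of 8068 and 6155 bp.

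**Figure D1:**
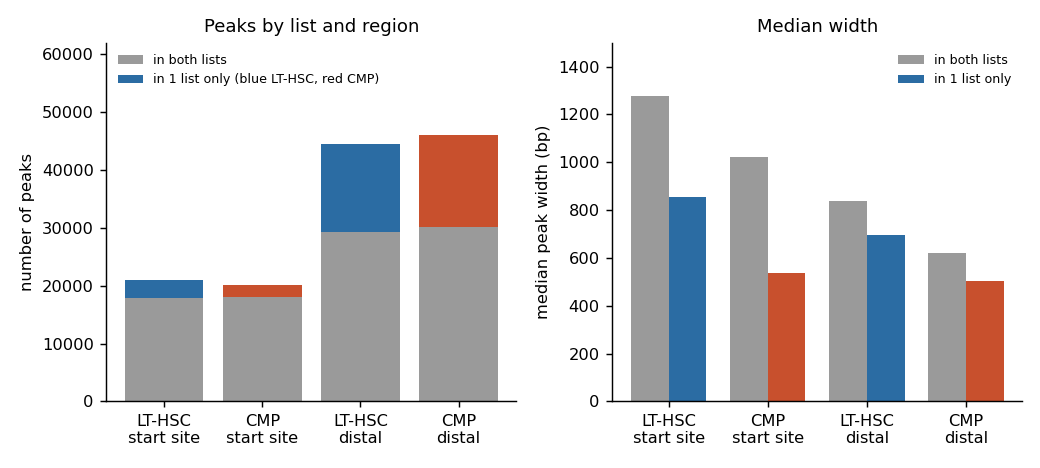
Number of peaks (left) and median peak width in bp (right) in the Daxx-WT LT-HSC and CMP lists, for peaks within 1 kb of a start site and distal peaks. Grey is shared and colour is found in 1 list only; distal peaks hold most of the changed peaks, and CMP-only peaks were the narrowest class (502 bp distal, 536 bp at start sites).

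LT-HSC-only distal peaks lay slightly further from genes than the others. Their median distance to the nearest start site was 20583 bp, against 18549 bp for CMP-only and 15993 bp for shared peaks. The share in introns was 49.2% for LT-HSC-only and 46.6% for CMP-only peaks. Median GC content of the central window was 46.8% for LT-HSC-only, 48.3% for CMP-only and 49.3% for shared distal peaks. Start-site peaks differed more by class in CpG content, a mark of the promoters of widely used genes. Shared ones held a mean of 13.4 CpG in the central window, LT-HSC-only ones 7.12 and CMP-only ones 3.99.

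Genes were then described by the balance of their distal peaks. A gene was counted as CMP-gaining when it had at least 2 more CMP-only than LT-HSC-only distal peaks, and as LT-HSC-gaining in the reverse case. Of 13524 protein-coding genes with a distal peak, 1809 (13.4%) were CMP-gaining and 1704 (12.6%) LT-HSC-gaining. A gene with many distal peaks reaches a difference of 2 more easily, and these background shares were not matched for the number of peaks per gene. Most genes with several changed peaks had both kinds. Among 3993 genes with at least 3 changed peaks, 382 had CMP-only peaks alone, 420 had LT-HSC-only peaks alone and 3191 were mixed.

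Stem cell genes had more LT-HSC-only than CMP-only distal peaks. Over the 32 genes of this list, 106 distal peaks were LT-HSC-only and 52 were CMP-only, so that 32.9% of the changed peaks were CMP-only (interval 26.1 to 40.6), against 50.8% over all genes. This direction turned, to 61.8% CMP-only (34 of 55), when changed peaks were limited to those found again in lists of other libraries, where the share over all genes was 82.5%. Of the 24 genes with a distal peak, 8 were LT-HSC-gaining, 3 were CMP-gaining and 13 were neither. The LT-HSC-gaining share, 8 of 24, stood against a background of 12.6%. At their start sites, 30 of 32 had a peak in both lists and none was in 1 list only. Over all genes with a start-site peak, 13902 of 15197 had a peak in both lists.

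Mecom, a zinc-finger regulator required for stem cell maintenance, had 24 LT-HSC-only, 2 CMP-only and 11 shared distal peaks, the largest LT-HSC excess of any gene (chromosome 3, 29951296 to 30548008). Its LT-HSC-only peaks lay from -95.7 to 184.8 kb of a Mecom start site, and 17 of the 24 recurred in Daxx-KO LT-HSCs against 1 in Daxx-KO CMPs. Over all LT-HSC-only distal peaks the first of these shares was higher, at 82.3%. In Daxx-WT cells of other libraries, 3 of the 24 were found in LT-HSCs 3 days after induction and 1 in KLS cells, the wider stem and progenitor gate. Meis1, a HOX cofactor, had 12 LT-HSC-only, 6 CMP-only and 12 shared peaks, with LT-HSC-only peaks from -401.3 to 296.3 kb. Etaa1, a replication stress factor gene near Meis1 on chromosome 11, had 13 LT-HSC-only peaks, no CMP-only peak and 1 shared peak. Mllt3, a chromatin reader that sustains stem cells, had 13 LT-HSC-only and 4 CMP-only peaks, and the CMP-only peaks lay together between 105.3 and 157.7 kb.

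Other stem cell genes, chosen here after their values were seen, repeated the pattern with fewer peaks. Hlf, a PAR bZIP factor that marks stem cells, had 5 LT-HSC-only and no CMP-only peaks. Prdm16, a zinc-finger factor of stem cells, had 9 and 1. Hmga2, a chromatin architectural protein, went the other way among the most changed genes of the list, with 10 CMP-only and 6 LT-HSC-only peaks. Cxcr4, the receptor that retains cells in the marrow, had 8 CMP-only peaks, of which 8 were also in the Daxx-WT list of granulocyte-monocyte progenitors (GMPs), and 1 LT-HSC-only peak. The GMP list held 71.5% of all CMP-only distal peaks, the background for such counts below. Among genes for surface markers, Procr had 2 and Slamf1 3 shared distal peaks and no changed one. Tie1 and Esam had no distal peak of any class, so no change could be seen there.

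A list of genes of other tissues, such as liver, pancreas, brain and skin, also leaned to the LT-HSC side. It had 15 LT-HSC-only and 6 CMP-only distal peaks (28.6% CMP-only, interval 13.8 to 50). Of 16 genes, 4 were LT-HSC-gaining and 1 CMP-gaining, against 12.6% and 13.4% of all genes with a distal peak. Ins2 (insulin) had 3 LT-HSC-only and no CMP-only peaks, Afp (alpha-fetoprotein) and Nkx2-1 had 2 and none each, and Cdh1 (E-cadherin) had 1 and 3. The interval of this list held the share of the stem cell list, so a lean of this size was also seen outside stem cell genes. It rested on 21 changed peaks, and the interval nearly reached the 50.8% of all genes. Of the 15 LT-HSC-only peaks, 6 were in the GMP list, against 5 of 106 for stem cell genes and 11.3% of all LT-HSC-only distal peaks.

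Granulocyte and monocyte genes leaned to the CMP side. Over 30 genes, 73 distal peaks were CMP-only and 31 LT-HSC-only (70.2% CMP-only, interval 60.8 to 78.1). Of the 29 genes with a distal peak, 12 were CMP-gaining and 0 LT-HSC-gaining, against the backgrounds of 13.4% and 12.6%. The CMP-gaining genes included Spi1, Gfi1, Klf4, Zeb2, Csf2rb2, Csf3r, Fcgr2b, Mpo, Ctsg, Cx3cr1 and Cd33. They encode transcription factors (Spi1 encodes PU.1), cytokine receptors, granule proteins and an Fc receptor.

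Among the transcription factors, Klf4, which promotes monocyte differentiation, had 12 CMP-only and 4 LT-HSC-only peaks, and its CMP-only peaks lay upstream from -602.1 to -53.9 kb. Zeb2 had 13 and 10. Irf8, which directs cells to monocytes and dendritic cells, had 4 CMP-only and 5 LT-HSC-only peaks. Spi1 had 2 CMP-only, no LT-HSC-only and 3 shared peaks, and the CMP-only peaks, in introns at 1.6 and 4.1 kb, were both in the GMP list. Cebpa, the factor required to enter the granulocyte lineage, had 4 shared distal peaks and 1 CMP-only peak at 18.4 kb. Its elements were thus mostly accessible in both populations.

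Among effector genes, Ctsg, which encodes the granule protease cathepsin G, had 3 CMP-only distal peaks and no other. Mpo, encoding myeloperoxidase, had 2 CMP-only peaks at 3.4 and 5.4 kb and 1 shared peak. Fcgr2b, an Fc receptor of the CD16/32 family used in the sort, had 4 CMP-only and 3 shared peaks.

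Start sites of granulocyte-monocyte genes moved the same way. A peak at the start site was CMP-only for 6 of 30 genes and LT-HSC-only for 0, whereas over 15197 genes with a start-site peak 2.26% were CMP-only and 6.26% LT-HSC-only. The 6 genes were Cebpe, a factor of late granulocyte maturation, Csf1r, the receptor of macrophage colony-stimulating factor, Ctsg, Ms4a3, Ly6c2 and Ccr2. Both lists covered the start sites of 23 others, and 1, Elane (neutrophil elastase), had no start-site peak in either.

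Genes of later neutrophil stages already had CMP-only peaks. Over 14 genes, 17 distal peaks were CMP-only and 3 LT-HSC-only (85% CMP-only, interval 64 to 94.8). Of 12 genes, 4 were CMP-gaining and 0 LT-HSC-gaining, against 13.4% and 12.6% of all genes with a distal peak. Cxcr2, the chemokine receptor that releases neutrophils from the marrow, had 4 CMP-only, 0 LT-HSC-only and 2 shared distal peaks but no start-site peak in either list. Itgam (CD11b) had 2 CMP-only and 4 shared peaks, Ly6g had 2 CMP-only peaks alone, and Ltf (lactoferrin) had 2 CMP-only and 1 LT-HSC-only peak. Start-site peaks of Camp, S100a8 and Mmp8, which encode granule and cytosolic neutrophil proteins, were CMP-only, and that of Padi4 was LT-HSC-only. All 17 CMP-only peaks of the list were also in the Daxx-WT GMP list, which held 71.5% of all CMP-only distal peaks.

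Promoters of 2 of these genes (Mmp8 and S100a8), of Ctsg and of Epb42, the red cell gene described below, are shown from 250 bases before to 50 after the RefSeq start (GRCm38.p6, on the strand of the gene), since their start-site peaks were in 1 list only. They were chosen after their motifs were seen.
Mmp8, CMP-only, chr9:7558179-7558478: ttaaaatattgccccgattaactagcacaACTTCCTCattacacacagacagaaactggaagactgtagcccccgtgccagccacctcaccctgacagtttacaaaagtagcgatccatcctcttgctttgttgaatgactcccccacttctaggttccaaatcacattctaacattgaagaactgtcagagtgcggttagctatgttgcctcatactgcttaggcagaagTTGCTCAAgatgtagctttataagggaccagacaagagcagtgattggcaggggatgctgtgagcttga
S100a8, CMP-only, chr3:90668821-90669120: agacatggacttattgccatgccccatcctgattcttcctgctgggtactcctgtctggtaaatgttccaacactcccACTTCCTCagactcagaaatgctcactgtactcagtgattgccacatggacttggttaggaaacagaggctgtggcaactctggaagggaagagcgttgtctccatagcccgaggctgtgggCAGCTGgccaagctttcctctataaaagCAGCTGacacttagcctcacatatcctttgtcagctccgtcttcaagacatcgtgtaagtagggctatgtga
Ctsg, CMP-only, chr14:56102525-56102824: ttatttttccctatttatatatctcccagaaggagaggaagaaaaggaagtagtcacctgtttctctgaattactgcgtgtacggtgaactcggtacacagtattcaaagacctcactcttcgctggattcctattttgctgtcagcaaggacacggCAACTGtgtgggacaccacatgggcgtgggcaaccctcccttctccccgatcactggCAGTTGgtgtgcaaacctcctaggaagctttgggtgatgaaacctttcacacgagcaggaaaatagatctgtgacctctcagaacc
Epb42, LT-HSC-only, chr2:121036828-121037127: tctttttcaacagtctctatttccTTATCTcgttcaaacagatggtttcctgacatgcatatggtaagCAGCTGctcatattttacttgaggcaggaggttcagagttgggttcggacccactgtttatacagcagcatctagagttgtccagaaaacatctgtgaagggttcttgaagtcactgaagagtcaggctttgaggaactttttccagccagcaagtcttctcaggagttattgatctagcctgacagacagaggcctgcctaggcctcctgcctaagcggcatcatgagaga

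The Mmp8 promoter held a PU.1 and a C/EBP motif, and that of S100a8 a PU.1 motif and 2 E-boxes (CAGCTG). The promoter of Camp, not printed, held none of the 12 motifs, and that of Padi4 an AP-1 motif alone. The Ctsg promoter held 2 MYB motifs, and that of Epb42 a GATA motif (AGATAA) and an E-box. Over 32851 promoters of this length, 3.2% held the PU.1, 10.8% the C/EBP, 13.7% the MYB, 16.3% the E-box and 11.2% the GATA motif on either strand.

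Erythroid and megakaryocyte genes did not lean to the CMP side. Over 22 erythroid genes, 29 distal peaks were CMP-only and 34 LT-HSC-only (46%, interval 34.3 to 58.2), with 1 CMP-gaining and 3 LT-HSC-gaining genes of 14. Over 20 megakaryocyte genes, 13 were CMP-only and 18 LT-HSC-only (41.9%, interval 26.4 to 59.2), with 1 gene of each kind among 16. Both intervals held the share of all changed distal peaks. Over all genes with a distal peak, 13.4% were CMP-gaining and 12.6% LT-HSC-gaining. Neither interval overlapped that of the granulocyte-monocyte genes, but the intervals count peaks of 1 gene as separate units. Bcl11a alone gave 13 LT-HSC-only and 8 CMP-only peaks of the erythroid list, and Fli1 8 and 2 of the megakaryocyte list. Without the narrowest 25% of each peak list, the CMP-only shares were 50% for erythroid, 48.3% for megakaryocyte and 68.5% for granulocyte-monocyte genes. A difference between these gene lists was not tested.

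Bcl11a, a repressor of fetal globin genes that also acts in B cells and stem cells, had the most changed peaks of the erythroid list, with 13 LT-HSC-only and 8 CMP-only peaks. Of the 13, 12 were in the Daxx-KO LT-HSC list, against 82.3% of all LT-HSC-only distal peaks. Zfpm1, the GATA1 cofactor FOG1, had 7 LT-HSC-only, 6 CMP-only and 16 shared peaks. Ank1 (ankyrin 1) had 3 CMP-only and 2 LT-HSC-only peaks. The start site of Gata1, the main erythroid and megakaryocyte factor, and that of Car1 (carbonic anhydrase 1) had CMP-only peaks, and that of Epb42, a red cell membrane protein, an LT-HSC-only peak. Neither list had a peak over the RefSeq promoter of Gata1. The globin genes Hba-a1, Hba-a2, Hbb-bs and Hbb-bt had no start-site peak in either list.

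The megakaryocyte list held 3 start-site peaks that were LT-HSC-only, those of Gp1bb and Tubb1 among them, and 0 that were CMP-only, of 20 genes, against backgrounds of 6.26% and 2.26%. Gp1bb and Tubb1 encode a platelet adhesion receptor subunit and the platelet tubulin. Neither list had a peak over the RefSeq promoter of Gp1bb. Fli1, an ETS factor of megakaryocytes, had 8 LT-HSC-only and 2 CMP-only distal peaks. Vwf (von Willebrand factor) had 3 of each with 7 shared, F2rl2 had 2 of each with 6 shared, and Itgb3 (integrin beta 3) had 2 LT-HSC-only and 1 CMP-only peak.

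**Figure D2:**
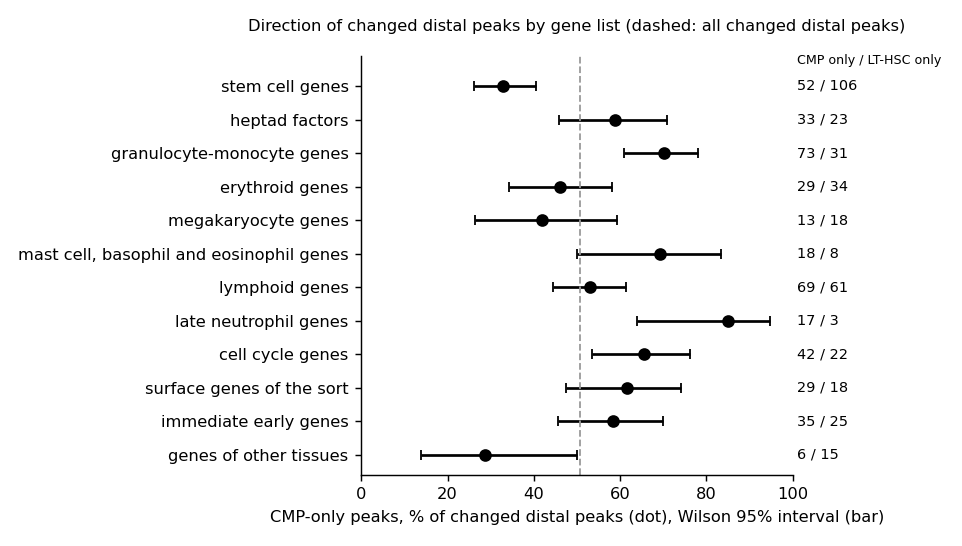
Share of CMP-only peaks among the changed distal peaks of 12 gene lists (dots) with Wilson 95% intervals (bars, counting error only) and the numbers of CMP-only and LT-HSC-only peaks at the right; the dashed line is the share over all changed distal peaks (50.8%). Late neutrophil (85%) and granulocyte-monocyte genes (70.2%) lay to the right, and stem cell genes (32.9%) and genes of other tissues (28.6%) to the left.

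Mast cell, basophil and eosinophil genes had 18 CMP-only and 8 LT-HSC-only peaks (69.2%, interval 50 to 83.5). Of 10 genes, 4 were CMP-gaining and 0 LT-HSC-gaining, against 13.4% and 12.6% of all genes with a distal peak. Alox5, which starts leukotriene synthesis, had 5 CMP-only and no LT-HSC-only peaks, Mitf, the mast cell factor, 5 and 2, Hdc (histidine decarboxylase) 3 and 1, and Cpa3 (carboxypeptidase A3) 1 and 1. The start-site peak of Epx (eosinophil peroxidase) was CMP-only and that of Prg2 (eosinophil major basic protein) LT-HSC-only. Neither list had a peak over the RefSeq promoter of Epx.

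Lymphoid genes had changes in both directions, with 69 CMP-only and 61 LT-HSC-only distal peaks (53.1%, interval 44.5 to 61.4). Of 22 genes, 6 were CMP-gaining and 4 LT-HSC-gaining, against 13.4% and 12.6% of all genes with a distal peak. The direction divided by gene. Id2, an inhibitor of E proteins, had 17 CMP-only, 7 LT-HSC-only and 20 shared peaks, and its CMP-only peaks lay upstream from -432.6 to -80.9 kb. Gata3, a T cell factor that is also active in stem cells, had 10 LT-HSC-only and 3 CMP-only peaks, and Foxp1 had 20 and 15. The LT-HSC-only peaks assigned to Gata3 lay from -4.6 to 1102.8 kb, and 1 of the 10 was in an intron. Bach2, a repressor in B cells, had 8 CMP-only and 6 LT-HSC-only peaks. Il7r, the interleukin-7 receptor, had 3 CMP-only distal peaks, no LT-HSC-only one and a CMP-only peak at its start site. The chemokine receptor gene Ccr9 also had a CMP-only start-site peak, with 2 distal peaks of each kind, but neither list had a peak over its RefSeq promoter. B and T cell genes named after their values were seen included Ebf1, with 5 LT-HSC-only and no CMP-only peaks, and Dntt, with 3 CMP-only peaks and no LT-HSC-only peak.

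The heptad, a group of factors that bind together in blood stem and progenitor cells, was split, with 33 CMP-only and 23 LT-HSC-only distal peaks (58.9%, interval 45.9 to 70.8). Runx1 had 21 CMP-only, 7 LT-HSC-only and 16 shared distal peaks, and Erg had 8, 3 and 10. Lmo2 had 2 CMP-only and 4 LT-HSC-only peaks, as Fli1 had 2 and 8. Tal1 had 5 shared peaks and no changed one. Of the 21 CMP-only peaks of Runx1, 18 were in the GMP list and 12 in the Daxx-KO CMP list, against 71.5% and 44.1% of all CMP-only distal peaks.

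Cell cycle genes leaned to the CMP side, with 42 CMP-only and 22 LT-HSC-only peaks (65.6%, interval 53.4 to 76.1). Of 14 genes, 4 were CMP-gaining and 0 LT-HSC-gaining, against 13.4% and 12.6% of all genes with a distal peak. Ccnd1 (cyclin D1) had 10 CMP-only peaks, all 10 of them in the GMP list, and 1 LT-HSC-only peak. Myc had 12 and 8, Cdk6 8 and 6, and Mki67, the proliferation marker, 2 of each with 12 shared. Ccnd1, Myc and Cdk6 thus gave most of the changed peaks of this list, and the interval counts peaks of 1 gene as separate units. The start sites of all 20 genes had a peak in both lists, as did 13902 of 15197 genes with a start-site peak.

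The genes of the sort markers had 29 CMP-only and 18 LT-HSC-only peaks (61.7%, interval 47.4 to 74.2). Kit, used to sort both populations, had 9 of each and 8 shared peaks. Ptprc (CD45) had 8 CMP-only and 5 LT-HSC-only peaks, and Cd34, which marks CMPs, 2 and 1. Cd48, whose product is absent from the sorted LT-HSCs, had 3 CMP-only and no LT-HSC-only peaks. Ly6a (Sca-1), which CMPs lack, had 2 LT-HSC-only and 1 CMP-only peak and no start-site peak in either list. Start sites of Kit, Slamf1 (CD150), Cd48, Cd34, Fcgr2b, Fcgr3 and Ptprc had a peak in both lists, as did 13902 of 15197 genes with a start-site peak. Without peak heights, presence in both lists does not show equal accessibility.

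Immediate early genes, which respond to handling of cells, had 35 CMP-only and 25 LT-HSC-only peaks (58.3%, interval 45.7 to 69.9). Jun had 10 and 3, Atf3 5 and 1, Fos 5 and 6, and Klf6 6 and 8. All 14 start sites had a peak in both lists, as did 13902 of 15197 genes with a start-site peak. The part of handling in the other results was not tested.

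**Figure D3:**
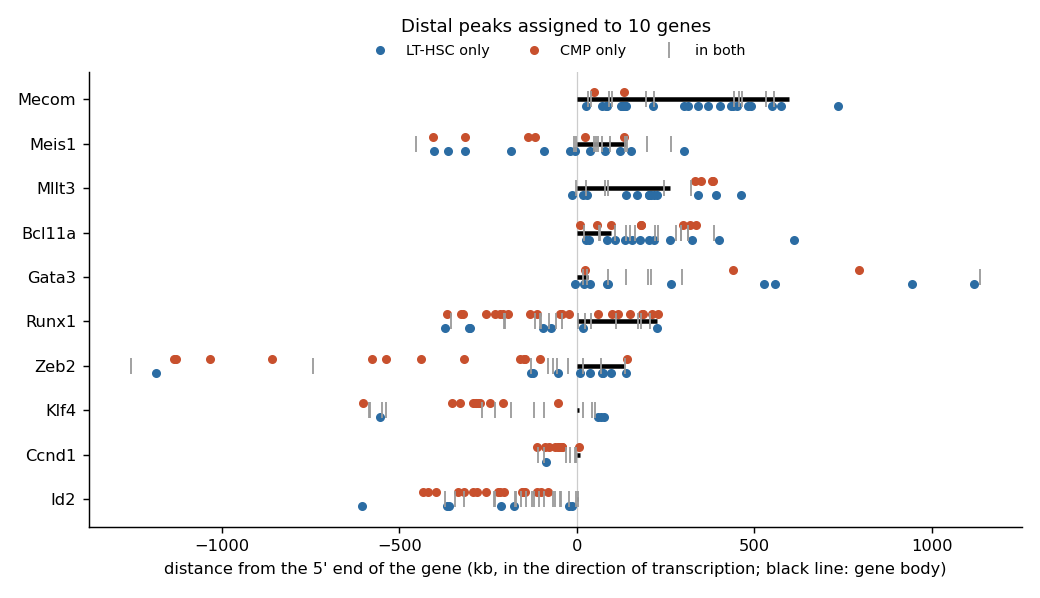
Distal peaks assigned to 10 of the most changed genes of the lists, by distance of the peak centre from the 5' end of the gene in kb (black line, gene body). Blue dots are LT-HSC-only, red dots CMP-only and grey ticks shared peaks; Mecom (24 LT-HSC-only, 2 CMP-only) and Ccnd1 (10 CMP-only, 1 LT-HSC-only) were nearly of 1 kind, whereas Zeb2 (13 CMP-only, 10 LT-HSC-only) and Bcl11a were mixed.

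Over all protein-coding genes, the largest CMP-only excess was found near Lmo4, a LIM-only protein, with 19 CMP-only and 4 LT-HSC-only peaks. It was followed by Gm5426 (16 and 2), Runx1, Mex3b (13 and 0), Cacna1d (13 and 1), Rbpj (13 and 1), Asap1 (14 and 3) and Fn1 (11 and 0). Rbpj is the DNA-binding factor of the Notch pathway and Fn1 encodes fibronectin. Of the 13 CMP-only peaks near Rbpj, 11 were in the GMP list and 10 in the Daxx-KO CMP list, against 71.5% and 44.1% of all CMP-only distal peaks.

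The largest LT-HSC-only excess, after Mecom, was found near Rora, a nuclear receptor, with 21 LT-HSC-only and 2 CMP-only peaks. Thsd4 (14 and 0), Etaa1, Nrxn3 (15 and 2), Zbtb20 (13 and 1), Celf2 (14 and 4) and Dad1 (11 and 1) followed. The 11 LT-HSC-only peaks assigned to Dad1 lay far from it, from 189.1 to 876.7 kb of its start site, and none was in an intron. All 11 were also in the Daxx-KO LT-HSC list, against 82.3% of all LT-HSC-only distal peaks. In Daxx-WT cells of other libraries, 2 of them were found 3 days after induction and 1 in KLS cells. Nrxn3, which encodes a neuronal adhesion protein, was the only one of the 16 genes whose start-site peak was LT-HSC-only; the start site of Gm5426 had no peak.

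The changed distal peaks were looked for in 8 peak lists of other libraries. CMP-only peaks were mostly found again in the GMP population: 71.5% were in the Daxx-WT GMP list, against 11.3% of LT-HSC-only and 78.5% of shared peaks. By the methods, GMP libraries were also sequenced as single reads, as CMP libraries were, and bead enrichment was used for LT-HSCs alone. Shared handling and the shared pathway of CMPs and GMPs cannot be told apart in these shares. In the opposite direction, the Daxx-WT list of stem cells at 3 days post induction (d.p.i.) held 15.7% of LT-HSC-only, 1.56% of CMP-only and 58.7% of shared peaks. The Daxx-WT list of KLS cells (c-Kit+ Lin- Sca-1+, the stem and multipotent progenitor gate) at 3 weeks post induction (w.p.i.) held 12.2%, 2.75% and 52.6%. The values at 3 d.p.i. depended on which peaks were kept: without the narrowest 25% of each list they were 28.1% for LT-HSC-only and 11.3% for CMP-only peaks, and with all peaks set to 500 bp they were 16.7% and 4.35%. LT-HSC-only peaks were thus found more often than CMP-only peaks in stem cell lists and less often in GMPs, but most LT-HSC-only peaks were absent from the other Daxx-WT stem cell lists.

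Those lists were shorter, with 36949 peaks at 3 d.p.i. and 33325 in KLS cells against 65306 in GMPs. They were made as reproducible peaks across libraries, and so differ in kind from the lists compared here. A fold enrichment over background was deposited for each peak of these 2 lists. At 3 d.p.i., peaks over LT-HSC-only elements had a median of 4.46 and peaks over shared elements 5.72. The corresponding medians in KLS cells were 4.65 and 5.34.

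Lists of Daxx-KO cells, which lack the H3.3 chaperone Daxx, gave a further look at the same positions. By the methods, Daxx-KO LT-HSCs and CMPs were handled as the Daxx-WT cells of the same type, in bead enrichment and sequencing alike. The Daxx-KO LT-HSC list held 82.3% of LT-HSC-only and 17.2% of CMP-only peaks, and the Daxx-KO CMP list 8.36% and 44.1%. For 74.4% of LT-HSC-only peaks, the Daxx-KO lists repeated the pattern (in LT-HSCs and not in CMPs), and for 34.7% of CMP-only peaks they repeated the reverse. A further 48.1% of CMP-only peaks were in neither of these Daxx-KO lists. The Daxx-KO CMP list was shorter (50590 peaks) and that of Daxx-KO LT-HSCs longer (70455), and the part of list length in these shares was not tested. In none of the 8 lists were 14.3% of LT-HSC-only, 15.1% of CMP-only and 0.629% of shared distal peaks.

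Recurrence was counted for the lineage lists. Of CMP-only peaks, the GMP list held 51 of 73 for granulocyte-monocyte genes, 34 of 52 for stem cell genes, 18 of 29 for erythroid genes and 8 of 13 for megakaryocyte genes, none of them above the 71.5% of all CMP-only distal peaks. LT-HSC-only peaks of stem cell genes recurred in 80 of 106 cases in Daxx-KO LT-HSCs, in 21 cases at 3 d.p.i. and in 13 cases in KLS cells, against 82.3%, 15.7% and 12.2% of all LT-HSC-only distal peaks. The limit to peaks found again, given above for stem cell genes, kept CMP-only peaks in the GMP list and LT-HSC-only peaks at 3 d.p.i., and over all genes 11301 of 13706 such peaks were CMP-only.

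**Figure D4:**
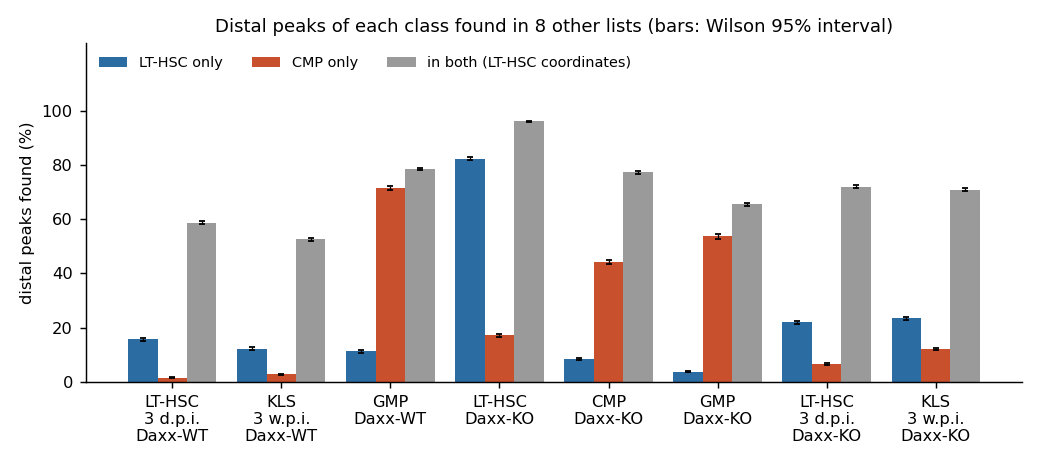
Share of LT-HSC-only (blue), CMP-only (red) and shared (grey) distal peaks found in 8 peak lists of other libraries, in percent, with Wilson 95% intervals (bars, counting error only). CMP-only peaks were found most often in Daxx-WT GMPs (71.5%) and LT-HSC-only peaks in Daxx-KO LT-HSCs (82.3%).

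Sequence motifs separated the classes. Within 100 bp of the peak centre, the PU.1 motif was found in 12.3% of CMP-only, 4.85% of LT-HSC-only and 6.36% of shared distal peaks, a difference of 7.44 percentage points between the first 2 (95% Newcombe interval 6.82 to 8.05). The C/EBP motif was found in 14.7%, 8.66% and 8.78%, a difference of 6.04 points (5.33 to 6.75). The RUNX motif stood at 11.1%, 8.53% and 9.21%, a difference of 2.6 points (1.93 to 3.26). Over all distal peaks the shares were 7.53% for PU.1, 10.3% for C/EBP and 9.54% for RUNX. All motifs were searched on both strands, and a match is a description of the sequence and does not show binding.

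Motifs on the LT-HSC side were those named for HOX-MEIS, NF-E2 (GCTGAGTCA, which contains the AP-1 motif), IRF and GATA. HOX-MEIS was found in 1.44% of LT-HSC-only, 0.487% of CMP-only and 0.711% of shared peaks. NF-E2 was found in 1.76%, 0.81% and 1.17%, and IRF, 2 copies of GAAA 2 bases apart, in 4.88%, 3.65% and 3.66%. The GATA motif stood at 12.3% of LT-HSC-only and 10.5% each of CMP-only and shared peaks, a difference of -1.79 points, CMP-only minus LT-HSC-only (-2.5 to -1.09). The AT-rich HOX-MEIS motif moved with base composition: in windows of 45 to 50% GC it stood at 0.849% of LT-HSC-only and 0.654% of CMP-only peaks. In the same windows PU.1 stood at 4.95% and 13.2%, and NF-E2 at 2.28% and 0.796%.

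Among the other motifs, E-box motifs were found in 14.8% of CMP-only and 12.2% of LT-HSC-only peaks, a difference of 2.66 points (1.9 to 3.42) and so of the size of the RUNX difference, and MYB motifs in 12.5% and 10.9%. The interval of the AP-1 difference (0.569 points, -0.0809 to 1.22) held 0, as did that of the PAR bZIP motif TTACGTAA, of which HLF is a reader, with 24 and 15 peaks. The ETS motif of widely used promoters (CCGGAAGT) was rare at distal peaks, in 0.5% of CMP-only and 0.347% of LT-HSC-only peaks. Searched over whole peaks, which are wider in the LT-HSC list, RUNX, E-box, MYB and ETS were the more frequent in LT-HSC-only peaks (differences of -1.02, -4.09, -4.18 and -0.0762 points), and the C/EBP difference was 0.562 points. PU.1 remained the more frequent in CMP-only peaks, at 18.3% against 10.6%.

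**Figure D5:**
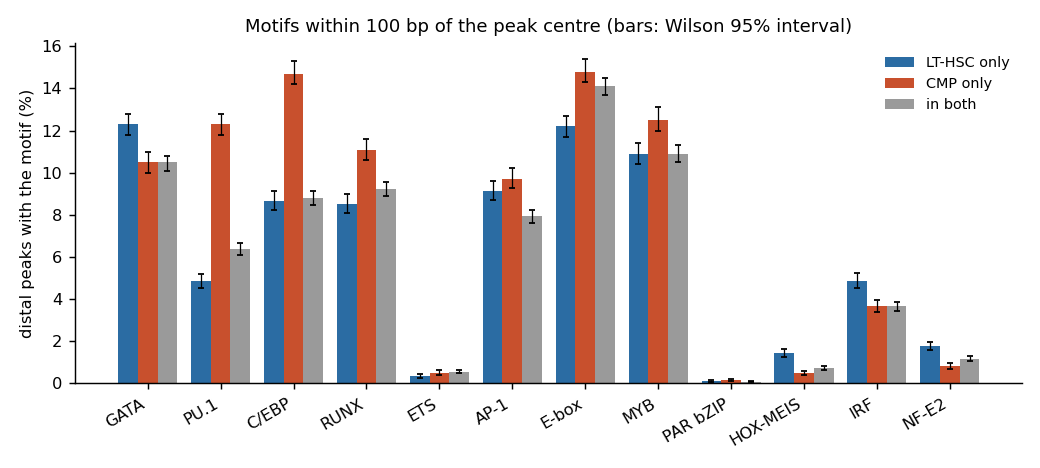
Share of LT-HSC-only (blue), CMP-only (red) and shared (grey) distal peaks with each of 12 motifs within 100 bp of the peak centre, in percent, with Wilson 95% intervals (bars, counting error only). PU.1 (12.3% against 4.85%) and C/EBP (14.7% against 8.66%) set CMP-only peaks apart from LT-HSC-only peaks.

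CMP-only peaks were not of 1 kind. Those also found in GMPs (11301) had the C/EBP motif in 17.4% and the GATA motif in 8.74%, whereas those absent from GMPs (4502) had C/EBP in 8.04% and GATA in 14.9%. The order of the 2 motifs was thus reversed between the elements found in the GMP list and those absent from it. PU.1 differed less (13% and 10.6%), as did RUNX (10.5% and 12.8%). By presence in the Daxx-KO CMP list, the shares were closer, with C/EBP at 15.4% and 14.1% and GATA at 10.5% and 10.4%.

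Pairs of motifs in 1 window were rare. PU.1 and C/EBP stood together in 1.44% of CMP-only, 0.484% of LT-HSC-only and 0.52% of shared peaks. Of the 17 CMP-only peaks of late neutrophil genes, 6 held PU.1 and 6 held C/EBP (35.3% each), among them the Cxcr2 and Retnlg elements printed above with both. Of the 73 CMP-only peaks of granulocyte-monocyte genes, 8 held PU.1 (11%) and 9 held C/EBP (12.3%), shares close to those of all CMP-only peaks. Among the 106 LT-HSC-only peaks of stem cell genes, 1 held HOX-MEIS, 5 held GATA (4.72%, against 12.3% of all LT-HSC-only peaks) and 11 held RUNX (10.4%, against 8.53%). Of their 52 CMP-only peaks, 11 held RUNX (21.2%, against 11.1% of all CMP-only peaks).

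Both sexes were used in the study and the labels do not give the sex of these libraries. Chromosome X had 45.6% and chromosome 1 had 55.8% CMP-only among changed distal peaks, and chromosome Y had 30 peaks in the LT-HSC and 15 in the CMP list. Leaving out X and Y moved none of the 4 shares of changed peaks outside its interval.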

How the data were processed

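The Daxx-WT LT-HSC and CMP groups (2 libraries each) were taken from the sample titles. The labels call their samples separate, but the authors deposited 1 peak list per group, so replicates could not be compared. The submitters' processing notes name CASAVA 1.8.4, cutadapt 1.13, STAR 2.5.3, bedtools and mm10, and the peak caller is not given in the sources used here. The files of LT-HSCs, CMPs and GMPs hold positions alone. Those at 3 d.p.i. and 3 w.p.i. hold reproducible peaks, with a fold enrichment per peak made by the authors, and it was read from the deposited Daxx-WT lists of that kind only. Depth is unknown for the positions. The deposited tables of differential sites and the DKO list were not used here, because they do not bear on Daxx-WT CMPs; those tables hold the authors' own comparisons.

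Peaks sharing at least 1 bp were called overlapping, and peaks were split at 1000 bp from the start sites of GENCODE release M 21, with Python 3.11.15, numpy 2.4.6, pandas 2.3.3 and pysam 0.24.0. The overlap step was tested on simulated data. Shared distal peaks were counted on LT-HSC coordinates. Motifs were searched as exact letters in the reference sequence of the same build, within 100 bp of the centre. Intervals are Wilson, or Newcombe for differences. The members, gene lists and motifs were chosen with earlier results of these data known. Named are the 4 most changed genes of each of 12 lists, listed genes with a start-site peak in 1 list only, and the 8 genes with the largest excess in each direction; all other genes were chosen after their values were seen, and some genes that the rule names are not reported here. Gene symbols and positions come from GENCODE, promoters from RefSeq (GRCm38.p6).

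The alternatives were an overlap of 50% of the shorter peak, changed peaks over 1 kb from the other list, leaving out the narrowest 25% of each list, autosomes, distal over 5 kb, start sites of any gene or within 100 kb, other motif windows, and recurrence in other libraries. Peaks set to 500 bp, peaks of 400 to 700 bp and windows of 45 to 50% GC were added after seeing the data.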

Additional observations from a re-analysis of the deposited data

How the results depend on the processing

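No paired analysis was possible because each group had 1 peak list made from both libraries, and for the same reason no library could be left out. The lists carry no depth, and a peak missing from a list may lie under the caller's limit. Of 232 values recomputed, 163 stayed within the counting interval of the reported value, 61 left it with the direction kept or not called, and 8 turned direction. The cause was not tested except where the setting's own construction shows it.

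With changed peaks over 1 kb from the other list, 25.2% of LT-HSC and 23.9% of CMP peaks were changed, and 15% of the LT-HSC-only distal peaks were found at 3 d.p.i. Without the narrowest 25% of each list, these values were 28.9%, 28.4% and 28.1%, the CMP-only share of changed start-site peaks was 42.3%, and GMPs held 80% of CMP-only peaks. Peaks whose partner was removed count as changed there. With distal set at over 5 kb, the CMP-only share was 50.1% of distal and 47.6% of other changed peaks, and 15.1% of LT-HSC-only peaks were found at 3 d.p.i. Peaks of 500 bp gave 29.4% and 29.4% changed, a CMP-only share of 45.2% at start sites, and 16.7% at 3 d.p.i.

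The nearest start site of any gene left 59 changed peaks for the stem cell list, 23.7% of them CMP-only. With changed peaks limited to those found in other libraries, where the share over all genes was 82.5%, the stem cell list turned to 61.8% and genes of other tissues to 71.4%, and granulocyte-monocyte, erythroid and megakaryocyte genes stood at 87.9%, 75% and 72.7%.

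Motif differences (CMP-only minus LT-HSC-only, points) within 50 bp were -1.07 for GATA, 5.11 for PU.1 and 3.53 for C/EBP. Over whole peaks they were -9.68 for GATA and 0.562 for C/EBP, and RUNX (-1.02), ETS (-0.0762), E-box (-4.09) and MYB (-4.18) turned. In peaks found in other libraries PU.1 stood at 9.14, C/EBP at 10 and IRF turned to 0.479. In peaks of 400 to 700 bp PU.1 stood at 6.53. At 45 to 50% GC, PU.1 stood at 8.22, C/EBP at 6.77 and ETS turned to -0.114.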
